A study of Mus musculus with 12 samples.

Results

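Acyl-CoA thioesterases cut fatty acyl-CoA into a free fatty acid and coenzyme A, and 10 genes of this enzyme family were followed in intestinal stem cells (ISCs) of stressed and corticosterone-treated mice. They were Acot1, Acot2, Acot3, Acot4, Acot5, Acot6, Acot7, Acot8, Acot12 and Acot13, 10 of the 47729 genes in the count table, and all 10 had at least 1 count in at least 1 library. The family was chosen by its measured fold changes in stress vs. Ctrl and in CORT vs. vehicle, so both of these comparisons are descriptions for its members. No p-value of a member is printed there, and where members are counted as past a threshold the count describes the choice and tests nothing. RNA was measured in 12 libraries of 4 groups with 3 libraries each. All mice carried the Lgr5-EGFP-IRES-CreERT2 allele, a knock-in that places EGFP under the Lgr5 locus, and were 8–10 weeks old and of both sexes per the study's methods. The sex behind each library was not given in the sources used here. Ctrl mice were not restrained and, in the study's restraint protocol, were kept without food and water for as long as the restrained mice. Stress mice were held in a tube for 3 h on 1 day, and their libraries carry the study's name for its restraint protocol, CRS. Vehicle mice received an intraperitoneal injection of 20% sulfobutylether-β-cyclodextrin, and CORT mice received corticosterone, the main glucocorticoid of mice, at 5 mg/kg in that solution. The cells were small intestinal EpCAM+ CD24- cells with high EGFP, sorted away from dead, endothelial, immune and red blood cells. The stress libraries are labelled 1+2, 3 and 4+5+6, read here as pools of 2 mice, 1 mouse and 3 mice. The study's methods state in general that samples were biologically independent, but the labels do not say which animals the libraries of the other groups came from, so p-values measure the spread between these libraries.

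The family consists of unrelated protein folds that share a reaction. Acot1 to Acot6 are type I enzymes of the alpha/beta hydrolase fold and differ mainly in the compartment they work in, with Acot1 in the cytosol, Acot2 in mitochondria and Acot3 to Acot6 in peroxisomes. Hotdog-fold enzymes include Acot7, Acot12 and Acot13. By compartment, Acot8 is a peroxisomal enzyme, with a broad substrate range. By returning acyl-CoA to free acid the enzymes set the balance between bound and free fatty acids in each compartment, and the type I genes are textbook targets of the fatty acid receptor PPAR alpha in liver, where they are induced by fasting. In the intestine, fatty acid oxidation in the crypt base has been tied to ISC maintenance.

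The 6 type I genes form 1 cluster. On mm10 they lie on the + strand of chromosome 12 between 83987861 and 84111349, a stretch of 123.5 kb, in the order Acot2, Acot1, Acot4, Acot3, Acot5 and Acot6. Acot7 lies on chromosome 4 (152178134 to 152271855, + strand), Acot8 on chromosome 2 (164792768 to 164804882, - strand), Acot12 on chromosome 13 (91741512 to 91786148, + strand) and Acot13 on chromosome 13 (24817948 to 24831517, - strand). The long noncoding gene 4732463B04Rik, on the - strand, overlaps both Acot3 and Acot4. Snx21 overlaps Acot8, Gm13096 and Gm27500 overlap Acot7, and Gm27656, Gm24597 and 4833422C13Rik overlap Acot12. The library protocol names no step that marks the strand, so reads of these overlapping genes cannot be told apart there. Acot1 and Acot2 are near copies, identical at 95.6% of the aligned coding bases of their longest GENCODE coding transcripts, and 23.7% of all 150-base windows of the Acot1 coding sequence occur unchanged in another of the 10 members. The other pairs within the cluster were 75.3% to 85.8% identical, and Acot4 shared no 150-base window with another member. Counts of Acot1 and Acot2 are therefore uncertain to the extent that the authors' counting split reads between them, and the sum of both is given beside the single values. Acot3 and Acot5 shared 7.85% and 4.13% of their coding windows with other members, Acot1 among them, and Acot6 0.903% with Acot3 and Acot5, so the low counts of Acot3 and Acot5 can also hold reads of more abundant members.

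The bases upstream of 3 cluster genes are shown because Acot1, Acot2 and Acot5 followed different courses over the 4 groups. The runs are the 250 bases before the start site from RefSeq (GRCm38.p6), 5′ to 3′ on the + strand, and capitals mark matches to the letters named in the next paragraph. Promoters of 8 of the 10 genes were in the table, and Acot6 and Acot13 are named only.
Acot1, chr12:84009252-84009501: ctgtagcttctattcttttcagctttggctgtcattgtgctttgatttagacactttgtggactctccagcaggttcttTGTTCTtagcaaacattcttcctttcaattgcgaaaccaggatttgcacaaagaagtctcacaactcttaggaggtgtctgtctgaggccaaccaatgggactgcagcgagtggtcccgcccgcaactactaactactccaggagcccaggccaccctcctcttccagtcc
Acot2, chr12:83987611-83987860: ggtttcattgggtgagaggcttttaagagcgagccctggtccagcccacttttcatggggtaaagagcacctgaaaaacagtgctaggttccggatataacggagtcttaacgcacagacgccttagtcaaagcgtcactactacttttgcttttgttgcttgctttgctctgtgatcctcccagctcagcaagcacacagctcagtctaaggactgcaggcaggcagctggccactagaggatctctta
Acot5, chr12:84069075-84069324: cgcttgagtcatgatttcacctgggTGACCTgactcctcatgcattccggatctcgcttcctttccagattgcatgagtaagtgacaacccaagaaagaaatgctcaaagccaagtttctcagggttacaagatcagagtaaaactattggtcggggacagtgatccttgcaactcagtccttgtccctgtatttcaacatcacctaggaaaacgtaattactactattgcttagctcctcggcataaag

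Letters read by 2 receptor families were searched on both strands of the 300 bases from 250 before to 50 after the start site. PPAR alpha with its partner RXR reads direct repeats of AGGTCA spaced by 1 base, written AGGTCANAGGTCA, and this repeat was in none of the promoters of the 8 genes and in 0.0396% of all 32851 promoters. The single motif AGGTCA, which is contained in that repeat, was in the promoters of Acot3, Acot4, Acot5 and Acot12, against 16.3% of all promoters. Acot5 held it in 2 places, of which the one shown reads TGACCT on the printed strand and lies 225 to 220 bases before the start site, and the other crosses the start site. The palindrome of the glucocorticoid receptor, GNACANNNTGTNC, was in none of the 8 genes' promoters and in 0.475% of all. Its single motif AGAACA was in the promoters of Acot1, where it reads TGTTCT 171 to 166 bases before the start site, and Acot12, against 19.0% of all. These are matches of letters in a short window, not sites.

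Total counts per library ran from 15934907 in stress 1+2 to 69533214 in CORT 2. The Ctrl libraries held 16152289 to 16943362 counts, the stress libraries 15934907 to 17135770, the vehicle libraries 16465961 to 31280267 and the CORT libraries 29426183 to 69533214. The CORT libraries were thus deeper than nearly all others, which matters for genes with few counts. The counts are estimated, and 1 read pair makes up to 4 of them, so a library with 0 counts allows 12 counts (3 read pairs). Levels are given in CPM (normalised counts scaled to a library of equal size). This floor was 0.700 to 0.753 CPM in Ctrl and stress, 0.384 to 0.729 CPM in vehicle and 0.173 to 0.408 CPM in CORT. Unlike the levels, the floors were taken from total counts without the normalisation factors, which ran from 0.9631 to 1.0225. These floors cover counting error only. The sort was checked against marker genes. Over the libraries the median level of 6 genes of crypt base ISCs (Olfm4, Lgr5, Slc12a2, Axin2, Smoc2 and Ascl2) ran from 434 to 607 CPM, with Olfm4 the highest at 6879 to 10342 CPM. Of the 6 blood markers, Adgre1 and Hbb-bs were at 0 in all 12 libraries and the list summed to at most 1.96 CPM. Of the 6 stromal and endothelial markers, Col3a1, Kdr and Acta2 were at 0 in all 12 libraries and the list summed to at most 3.23 CPM.

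Per length, Acot7, Acot1, Acot13 and Acot8 were the most abundant members in unstressed ISCs. In FPKM (fragments scaled to transcript length and depth), Acot7 had 50.3 ± 5.70 (SD, n = 3), Acot1 42.8 ± 4.71, Acot13 42.2 ± 4.22 and Acot8 24.3 ± 3.68 in Ctrl. Acot2 followed with 8.52 ± 0.622 FPKM, Acot4 with 1.96 ± 0.418 and Acot6 with 1.79 ± 0.410. The ranges of Acot1 and Acot13 overlapped, those of Acot7 and Acot1 overlapped by little, and those of Acot4 and Acot6 overlapped. Acot12 at 0.0595 ± 0.0619 FPKM and Acot3 at 0.0391 ± 0.0677 FPKM were near the floor, and Acot5 was listed at 0 in all 3 Ctrl libraries. Ctrl ISCs thus held the cytosolic Acot1 well above the mitochondrial Acot2, and hardly any transcript of 2 of the 4 peroxisomal genes of the cluster. Averaged over all 12 libraries, Acot1 was the most abundant member at 83.6 FPKM, ahead of Acot7 at 47.2 FPKM.

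Acot1, the cytosolic long-chain enzyme, was lowest in Ctrl and highest in vehicle. Its level was 65.6, 77.5 and 79.6 CPM in Ctrl, 129, 110.0 and 171 CPM in stress (libraries 1+2, 3 and 4+5+6), 132, 254 and 213 CPM in vehicle (3, 5 and 6) and 197, 175 and 147 CPM in CORT (2, 4 and 5). No library of another group reached down to the Ctrl range, while stress, CORT and vehicle overlapped each other. The fitted log2 fold change was 0.88 ± 0.15 (SE) in stress vs. Ctrl and -0.21 ± 0.21 in CORT vs. vehicle, where leaving out 1 library gave -0.43 (without vehicle 3) to 0.00 (without vehicle 5). Both injected groups thus lay above Ctrl too, and the CORT libraries did not lie above vehicle.

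Acot2, the mitochondrial near copy of Acot1, ran from Ctrl over vehicle and stress to CORT. It had 21.0, 22.5 and 19.0 CPM in Ctrl, 44.6, 36.5 and 62.8 CPM in stress, 27.1, 55.6 and 52.3 CPM in vehicle and 67.1, 65.8 and 53.0 CPM in CORT. All 9 libraries outside Ctrl lay above the highest Ctrl library, and the other 3 groups overlapped. The fitted log2 fold change was 1.20 ± 0.19 in stress vs. Ctrl and 0.46 ± 0.23 in CORT vs. vehicle, where it was 0.20 ± 0.12 without vehicle 3. The sum of both genes, which does not depend on how reads were split between them, was 95.1 ± 7.37 CPM in Ctrl, against 185 ± 44.7 under stress, 245 ± 77.3 after vehicle and 235 ± 32.4 after CORT. The ratio of Acot1 to Acot2 counts was 2.72 to 3.02 in the stress libraries and 2.66 to 2.93 in the CORT libraries, against 3.12 to 4.20 in Ctrl and 4.07 to 4.86 in vehicle. The ranges of stress and CORT overlapped, and both lay below those of the 2 control groups.

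Acot6, a peroxisomal enzyme for branched acyl-CoA, separated the treated from the control libraries. Its counts were 90 to 147 in Ctrl, 264 to 281 in stress, 114 to 269 in vehicle and 899 to 2233 in CORT. On the CPM scale it had 8.59, 6.28 and 5.48 in Ctrl, 17.3, 17.0 and 15.2 in stress, 6.77, 10.1 and 8.71 in vehicle and 33.3, 33.0 and 30.9 in CORT. Ctrl and vehicle overlapped, all stress libraries lay above both, and all CORT libraries lay above stress. Group means were 6.78 ± 1.61, 16.5 ± 1.14, 8.51 ± 1.65 and 32.4 ± 1.31 CPM in the same order. The fitted log2 fold change was 1.28 ± 0.21 in stress vs. Ctrl and 1.92 ± 0.16 in CORT vs. vehicle, ratios of 2.44 and 3.81 between the means.

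Acot5, the peroxisomal medium-chain enzyme, was found in the treated groups and at or near 0 in the controls. It had 0 counts in all 3 Ctrl libraries, 27, 17 and 40 counts in stress, 0, 9 and 16 counts in vehicle and 336, 150 and 73 counts in CORT. In CPM these were 1.68, 1.03 and 2.31 in stress, 0, 0.523 and 0.518 in vehicle and 5.02, 2.54 and 2.51 in CORT. Every stress library lay above the level that 0 counts allow in Ctrl, and the mean of stress was at least 2.32-fold higher than that floor, taken per library and averaged over the Ctrl group. This bound takes the counts as deposited, and the part of reads shared with Acot1 in them was not tested. In CORT vs. vehicle the fitted log2 fold change was 3.19 ± 0.70, with group means of 0.347 and 3.36 CPM in vehicle and CORT. After thinning all libraries to 15934907 counts this fit gave 2.97 ± 0.73.

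Acot3 and Acot4, both peroxisomal and both overlapped by 4732463B04Rik, showed the same side with more scatter. Acot4, which acts on succinyl-CoA and glutaryl-CoA, had 5.61, 5.92 and 3.47 CPM in Ctrl, 9.45, 5.94 and 15.7 CPM in stress, 5.05, 8.66 and 8.51 CPM in vehicle and 10.2, 13.0 and 11.1 CPM in CORT. All stress libraries lay above all Ctrl libraries and all CORT libraries above all vehicle libraries, but stress 3 exceeded the highest Ctrl library by little. The fitted log2 fold changes were 1.05 ± 0.37 in stress vs. Ctrl and 0.62 ± 0.23 in CORT vs. vehicle, where it was 0.41 ± 0.18 without vehicle 3. Acot3, an enzyme of medium- and long-chain acyl-CoA, had 0, 0 and 6 counts in Ctrl, 13, 9 and 22 in stress, 0, 22 and 28 in vehicle and 84, 87 and 26 in CORT. Its CORT range of 0.894 to 1.47 CPM overlapped the vehicle range of 0 to 1.28 CPM, and most Ctrl and stress values were within reach of the floor. 4732463B04Rik itself had log2 fold changes of 0.86 ± 0.93 in stress vs. Ctrl and 1.04 ± 0.80 in CORT vs. vehicle (adjusted p = 0.736 and 0.487, edgeR).

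Acot7, Acot8 and Acot13, the abundant genes outside the cluster, stayed within overlapping ranges in every comparison. Acot7, a long-chain enzyme best known from neurons, ranged from 57.5 to 92.3 CPM over the 12 libraries, Acot8 from 25.7 to 35.9 CPM and Acot13 from 26.9 to 40.0 CPM. Their log2 fold changes were -0.08 ± 0.14, -0.08 ± 0.14 and -0.13 ± 0.13 in stress vs. Ctrl and -0.18 ± 0.11, 0.01 ± 0.14 and 0.17 ± 0.13 in CORT vs. vehicle. Acot12, a cytosolic acetyl-CoA hydrolase, had 8, 0 and 4 counts in Ctrl, 15, 8 and 45 in stress, 12, 0 and 4 in vehicle and 4, 3 and 0 in CORT. Outside the stress group Acot12 never exceeded the 12 counts that the floor allows, and it was fitted in none of the comparisons.

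**Figure D1:**
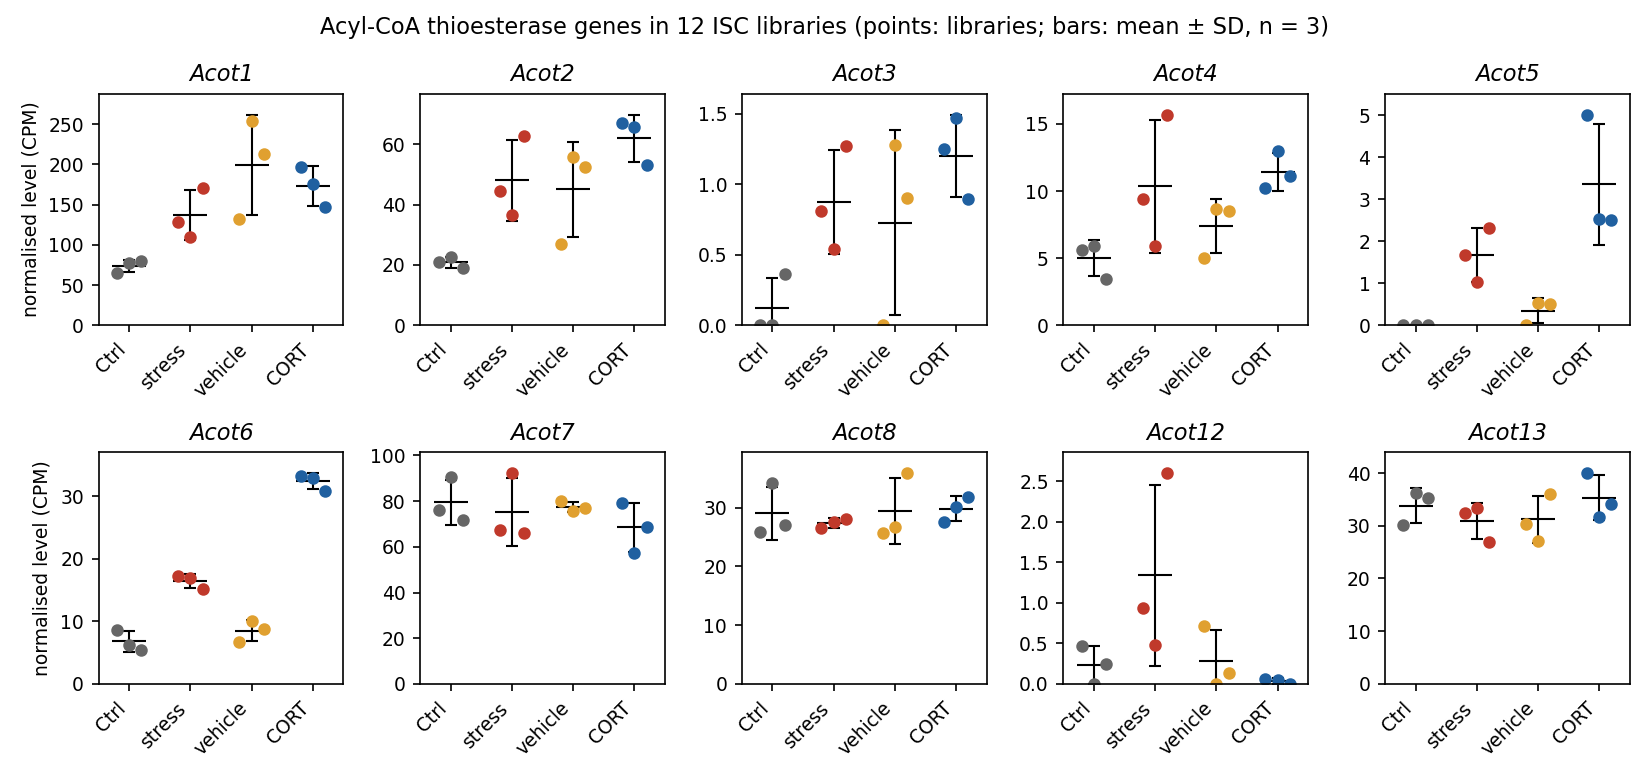
Normalised level (CPM, linear axis from 0) of each member in the 12 libraries, with points for libraries and bars for the mean ± SD of 3 libraries, cut off at 0. Acot6 lies at 15.2 to 17.3 CPM in stress and 30.9 to 33.3 CPM in CORT, both above Ctrl and vehicle, Acot1 is lowest in Ctrl, and Acot7, Acot8 and Acot13 overlap throughout.

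Calls and ranges were also counted over the family. A gene was called at an adjusted p below 0.05 (edgeR quasi-likelihood test, Benjamini-Hochberg adjustment over all genes tested) and a change above 2-fold. In stress vs. Ctrl, 8 members passed the filter on low counts, 3 were called higher (Acot2, Acot5 and Acot6) and 0 lower, where 0.612% of the 13722 genes tested were called higher and 0.138% lower. DESeq2 called Acot2 and Acot6 but not Acot5, and edgeR called 0 members without Ctrl 2, without Ctrl 3 or with no filter on low counts. All 3 stress libraries lay above all 3 Ctrl libraries for 7 of the 10 members, the 6 cluster genes and Acot12, 5 of them tested, against 10.2% of all genes tested. For Acot12 the nearest libraries had 8 counts each (0.485 CPM in stress 3 and 0.468 CPM in Ctrl 1), under the floor of 12, so that its groups could not be told apart at this depth. In CORT vs. vehicle, 9 members were tested, 2 were called higher (Acot5 and Acot6) and 0 lower, where 1.13% of 14656 genes were called higher and 0.737% lower. With at least 10 counts in every library, or without any 1 library other than vehicle 3, 1 member was called. All 3 CORT libraries lay above all 3 vehicle libraries for Acot4, Acot5 and Acot6, against 14.3% of all genes tested, and those of the other 3 cluster genes overlapped vehicle. Members with few counts pass the filter only through the groups where they are high, and the family was chosen on these contrasts, so these calls are descriptions and nothing is read from their shares.

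In shares of the family's summed FPKM, the cluster made up 32.1% ± 1.37 in Ctrl, against 49.0% ± 8.44 under stress, 54.4% ± 8.91 after vehicle and 55.5% ± 3.46 after CORT (SD, n = 3). The summed FPKM of the 4 genes outside the cluster was 117 ± 11.9 in Ctrl, against 110 ± 9.28 under stress, 114 ± 8.12 after vehicle and 108 ± 13.4 after CORT. The summed FPKM of the cluster was 55.2 ± 3.97, 108 ± 28.9, 141 ± 45.6 and 135 ± 20.7 in the same order, most of it Acot1. Within the cluster the 4 peroxisomal genes together had 3.80 ± 0.673 FPKM in Ctrl, against 9.78 ± 2.49 under stress, 5.64 ± 1.66 after vehicle and 15.0 ± 1.20 after CORT. The peroxisomal sum was thus highest in CORT, with its lowest CORT library (13.9 FPKM) above the highest stress library (12.3 FPKM), whereas the cluster total of CORT overlapped that of vehicle.

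The genes next to the cluster were taken up after their values were seen. The count table held 14 further genes within 250 kb of it, 13 of them without 4732463B04Rik, which can carry reads of Acot3 and Acot4. Of the 13, 8 were tested in stress vs. Ctrl, 9 in CORT vs. vehicle and 8 in vehicle vs. Ctrl, and 0 were called in any of them by edgeR or DESeq2. At an unadjusted p under 0.05 (edgeR) there were 1 higher and 0 lower in stress vs. Ctrl, 4 higher and 1 lower in CORT vs. vehicle and 1 higher and 1 lower in vehicle vs. Ctrl. Over all genes tested, 8.39% were higher and 6.78% lower at that p in stress vs. Ctrl, 11.2% and 12.1% in CORT vs. vehicle and 6.16% and 4.93% in vehicle vs. Ctrl. The log2 fold changes of these neighbours had a median of 0.09 (-0.64 to 0.49) in stress vs. Ctrl, 0.42 (-0.25 to 1.33) in CORT vs. vehicle and 0.16 (-1.37 to 0.37) in vehicle vs. Ctrl, against -0.0028, 0.014 and 0.0018 over all genes tested. Both the highest value in CORT vs. vehicle and the lowest in vehicle vs. Ctrl were those of Fam161b (1.33 ± 0.43 and -1.37 ± 0.51, adjusted p = 0.0982 and 0.315), and the vehicle libraries enter both. Dnal1, the neighbour beyond Acot6, had 0.49 ± 0.34 and 0.93 ± 0.26 (adjusted p = 0.564 and 0.0628), and Zfp410 had 0.01 ± 0.11 and 0.63 ± 0.14 (adjusted p = 0.982 and 0.0246, below 2-fold). Numb, an inhibitor of Notch signalling on the other side, had 0.14 ± 0.12 and 0.0 ± 0.08 (adjusted p = 0.672 and 0.981).

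**Figure D2:**
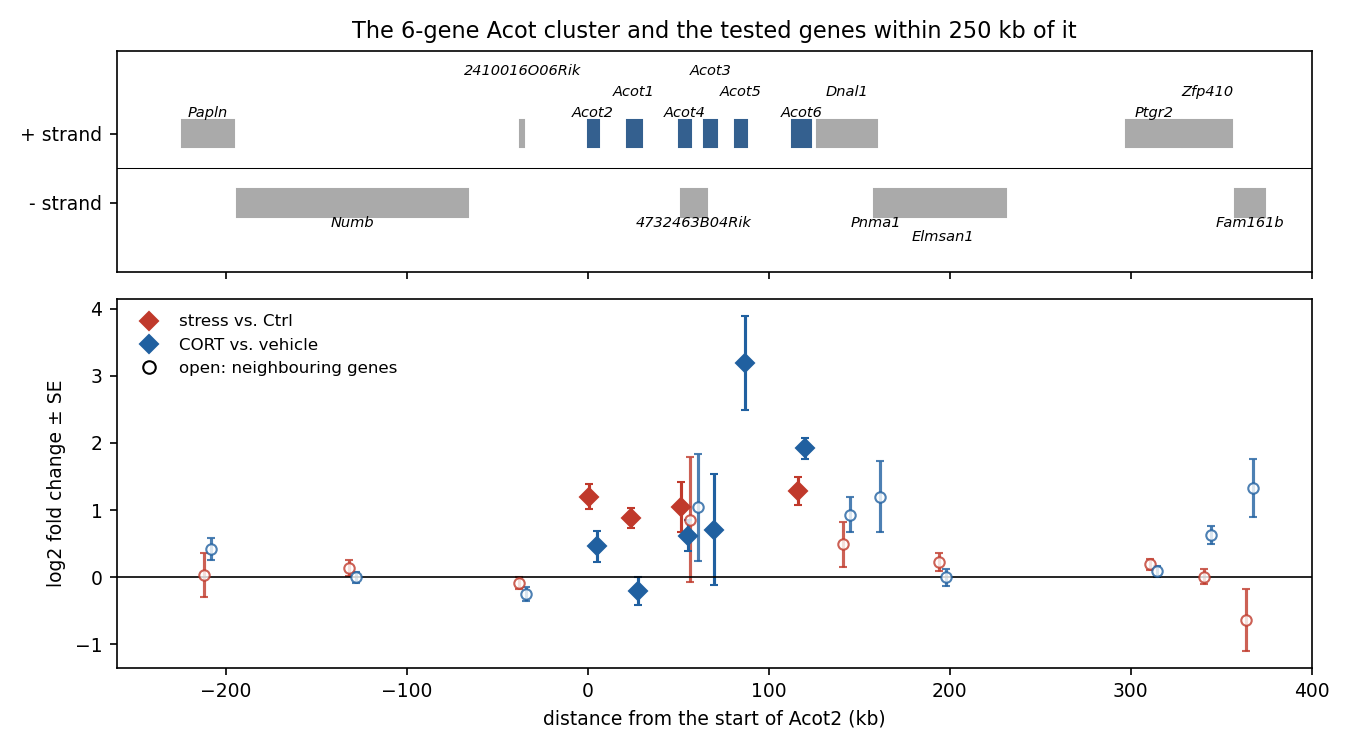
Upper panel: the 6 cluster genes (blue) and tested neighbours (grey) by distance from the start of Acot2 in kb. Lower panel: log2 fold changes ± SE of the same genes, where filled diamonds are Acot genes and open circles neighbours. Acot5 in stress vs. Ctrl is left out because Ctrl was at 0, and over stress vs. Ctrl and CORT vs. vehicle the neighbours run from -0.64 to 1.33.

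The vehicle libraries were set against Ctrl to see what injection and handling alone carried. This comparison shares its libraries with both others, on which the family was chosen, so its p-values are not independent of that choice. For the members, its p-values and calls are therefore descriptions too. The injection also cannot be told apart from any other difference in handling between the 2 control groups. Acot1 had a log2 fold change of 1.43 ± 0.19 (edgeR, adjusted p = 0.00661), with 74.2 ± 7.57 CPM in Ctrl and 199 ± 62.2 CPM in vehicle, higher in 3 of 3 vehicle libraries. Acot2 had 1.12 ± 0.23 (adjusted p = 0.0506), also with 3 of 3 vehicle libraries above Ctrl. Acot4 had 0.57 ± 0.30 (adjusted p = 0.534), Acot6 0.33 ± 0.25 (adjusted p = 0.696), Acot7 -0.03 ± 0.10 (adjusted p = 0.952), Acot8 0.03 ± 0.16 (adjusted p = 0.977) and Acot13 -0.11 ± 0.14 (adjusted p = 0.847). Acot3, Acot5 and Acot12 did not pass the filter on low counts. Of the 7 members tested, 1 was thus called higher and 0 lower, where 0.227% of 13642 genes were called higher and 0.132% lower, and all 3 vehicle libraries lay above all 3 Ctrl libraries for 2 members against 8.17% of all genes, and below them for 0 members against 8.15%. Leaving out Ctrl 1 took the adjusted p of Acot1 to 0.0802 (range over its alternatives 3.55e-05 to 0.258), and leaving out vehicle 3, the lowest vehicle library for both genes, took that of Acot2 to 0.000463 (range over its alternatives 4.01e-05 to 0.409).

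The 2 responses were also set against each other in 1 fit over the 12 libraries, as the log2 fold change in stress vs. Ctrl minus that in CORT vs. vehicle. The difference was 1.08 ± 0.29 (SE) for Acot1 and 0.74 ± 0.33 for Acot2, on the side of stress, and -0.64 ± 0.25 for Acot6, on the side of CORT. Leaving out any 1 of the 12 libraries gave 0.87 to 1.31 for Acot1, 0.50 to 1.0 for Acot2 and -0.78 to -0.44 for Acot6. For Acot4, Acot7, Acot8 and Acot13 it was 0.43 ± 0.46, 0.10 ± 0.20, -0.10 ± 0.20 and -0.31 ± 0.19. Acot5 was fitted too but is left out, because all its Ctrl libraries were at 0 and its difference therefore has no defined size. The level of vehicle enters each of these differences, and for Acot1 it was the highest of the 4 groups.

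**Figure D3:**
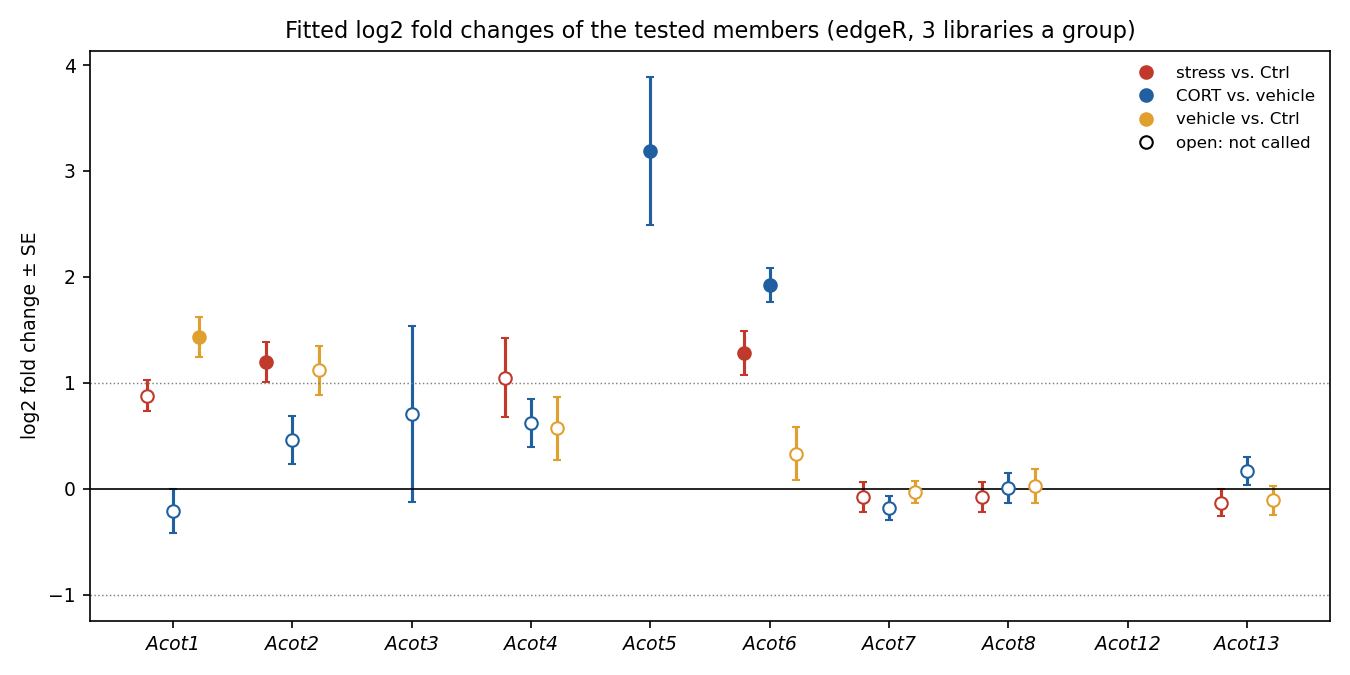
Log2 fold changes ± SE of the members tested in 3 comparisons, with filled points for called genes and dotted lines at a 2-fold change. Acot1 and Acot2 sit high in stress vs. Ctrl (0.88 and 1.20) and vehicle vs. Ctrl (1.43 and 1.12), Acot6 in stress vs. Ctrl and CORT vs. vehicle (1.28 and 1.92); Acot5 in stress vs. Ctrl is left out because Ctrl was at 0.

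The targets of PPAR alpha other than thioesterases, a list of 27 genes of lipid oxidation and handling, mostly had positive log2 fold changes in stress vs. Ctrl and in vehicle vs. Ctrl and negative ones in CORT vs. vehicle. In stress vs. Ctrl, 22 of 23 tested genes had a positive log2 fold change, with a median of 0.40 against -0.0028 over all genes tested, and 3 were called higher and 0 lower (0.612% and 0.138% of all genes). Pdk4, a kinase that shuts off pyruvate oxidation, rose by 5.70 ± 0.41 (log2, edgeR adjusted p = 0.000119), Angptl4, a secreted lipase inhibitor, by 3.90 ± 0.16 (adjusted p = 3.98e-06), and Fabp1, a fatty acid binding protein also abundant in enterocytes, by 3.39 ± 0.60 (adjusted p = 0.0221). Hadha, a subunit of the mitochondrial trifunctional protein, had 0.31 ± 0.12 (adjusted p = 0.26) and Cpt1a 0.13 ± 0.19 (adjusted p = 0.807). Enterocyte markers were high in the same stress libraries, with 4 of 6 called higher and a median log2 fold change of 2.85, and Fabp1 had 99.8 ± 97.6 CPM there against 9.52 ± 1.22 CPM in Ctrl. The part of enterocyte RNA in the values of this list was not tested.

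In vehicle vs. Ctrl, 22 of 23 tested genes of this list again had a positive log2 fold change, with a median of 0.66 against 0.0018 over all genes, and 7 were called higher and 0 lower (0.227% and 0.132% of all genes). Among them Pdk4 rose by 2.66 ± 0.30 (adjusted p = 0.00339), Creb3l3, a hepatic and intestinal transcription factor of lipid genes, by 2.33 ± 0.28 (0.00467), Mgll by 2.30 ± 0.45 (0.0428), Fabp1 by 1.92 ± 0.31 (0.0183) and Angptl4 by 1.75 ± 0.23 (0.00661), each an edgeR adjusted p. The list was chosen with earlier results of these libraries known and its direction here is a description.

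A positive log2 fold change was found in 4 of 24 tested genes in CORT vs. vehicle, with a median of -0.44 against 0.014 over all genes. All 3 CORT libraries lay below vehicle for 12 genes and above it for 3, against 14.4% and 14.3% of all genes, and 3 genes were called higher and 1 lower (1.13% and 0.737% of all genes). Pdk4 rose by 4.10 ± 0.31 (edgeR, adjusted p = 0.000185), Angptl4 by 2.79 ± 0.22 (adjusted p = 0.000251) and Pex11a, a peroxisome division factor, by 1.02 ± 0.22 (adjusted p = 0.0209). Creb3l3 fell by 1.14 ± 0.28 (adjusted p = 0.0381), and Hadha had -0.43 ± 0.10 (adjusted p = 0.0345, below 2-fold). The comparisons share libraries, vehicle being the reference here and the first group in vehicle vs. Ctrl, so a gene high in vehicle enters both with opposite sign.

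**Figure D4:**
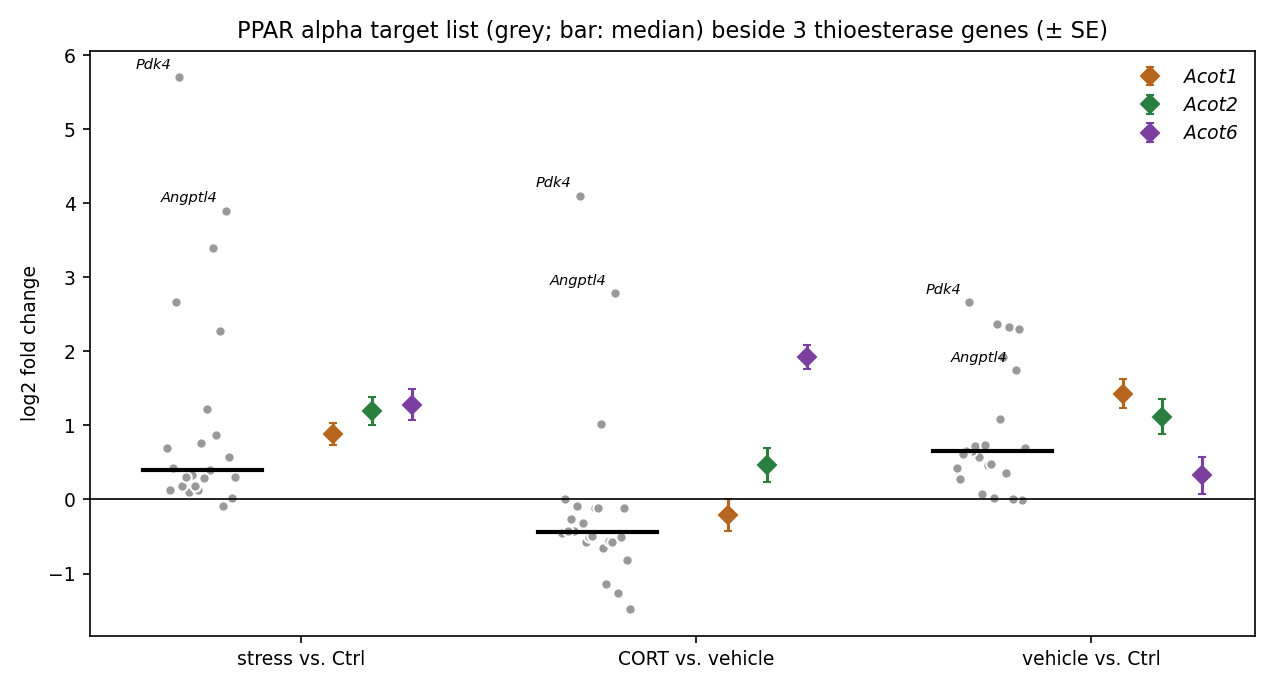
Log2 fold changes of the tested PPAR alpha targets (grey points, black bar for their median) in 3 comparisons, beside Acot1, Acot2 and Acot6 with their SE (diamonds). The medians are 0.40, -0.44 and 0.66 from left to right, and Acot6 is at 1.28 and 1.92 in the first 2 comparisons, where Acot1 is at 0.88 and -0.21.

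Of the receptors and coactivators tied to thioesterase genes, all 13 were tested. In stress vs. Ctrl, Ppargc1a alone of the list, the coactivator PGC-1 alpha, was called by edgeR and by DESeq2, with a log2 fold change of 1.13 ± 0.18 (edgeR, adjusted p = 0.0149). Of all genes 0.612% were called higher there and 0.138% lower. At an unadjusted p under 0.05 (edgeR), 3 genes of the list were higher and 4 lower (8.39% and 6.78% of all genes), and the list's median was -0.04. CORT vs. vehicle gave 3 of 13 genes called higher and 0 lower, where 1.13% and 0.737% of all genes were, with a median of 0.05. They were Ppargc1a at 1.47 ± 0.17 (adjusted p = 0.00117), Ppara, the receptor itself, at 1.30 ± 0.23 (adjusted p = 0.00916) and Lpin1, a phosphatidate phosphatase that also acts with PGC-1 alpha, at 1.09 ± 0.23 (adjusted p = 0.02). Ppara went from 19.1 to 46.9 CPM there. In vehicle vs. Ctrl 0 genes of the list were called by edgeR or DESeq2, 1 was lower at an unadjusted p under 0.05 (4.93% of all genes), and the median was -0.05. The lower gene was Ppard, with -0.56 ± 0.08 (edgeR adjusted p = 0.0102, below 2-fold), at 155 CPM in Ctrl and 105 CPM in vehicle. Hnf4a, the gene of the list with the highest CPM, had -0.37 ± 0.08, -0.40 ± 0.08 and 0.01 ± 0.08 in stress vs. Ctrl, CORT vs. vehicle and vehicle vs. Ctrl. Its edgeR adjusted p was 0.044, 0.0179 and 0.976 in that order, with both lower values below 2-fold. Nr3c1, the glucocorticoid receptor, had log2 fold changes of -0.05 ± 0.09, -0.37 ± 0.07 and -0.05 ± 0.08 in stress vs. Ctrl, CORT vs. vehicle and vehicle vs. Ctrl (adjusted p = 0.865, 0.012 and 0.895, the second below 2-fold).

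Acyl-CoA synthetases make the acyl-CoA that thioesterases cut. Of the 14 acyl-CoA synthetases and fatty acid transporters, 13 were tested. In stress vs. Ctrl 0 were called by edgeR or DESeq2, 4 were higher at an unadjusted p under 0.05 (8.39% of all genes), and the median log2 fold change was 0.16. CORT vs. vehicle gave 1 call higher and 0 lower (1.13% and 0.737% of all genes), with a median of 0.15. This was Acsl1, which activates long-chain fatty acids, with 1.22 ± 0.13 (adjusted p = 0.000827), from 104 to 243 CPM, against 0.53 ± 0.12 in stress vs. Ctrl (adjusted p = 0.0546). In CORT vs. vehicle, Acsl3 had 0.68 ± 0.09 and Acsm3 0.33 ± 0.08 (edgeR adjusted p = 0.00298 and 0.0339), both below 2-fold. In vehicle vs. Ctrl 0 were called by either tool, 1 was higher and 2 were lower at an unadjusted p under 0.05 (6.16% and 4.93% of all genes), and the median was 0.02. The higher gene was Slc27a1, with 0.63 ± 0.12 (edgeR adjusted p = 0.0428, below 2-fold).

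Of the 18 genes of peroxisomal oxidation and acyl transfer, 17 were tested. In stress vs. Ctrl 0 were called by edgeR or DESeq2 and 3 were higher at an unadjusted p under 0.05 (8.39% of all genes), with a median of 0.21 and 16 positive values. Among them Pex11a had 0.76 ± 0.14 (edgeR adjusted p = 0.0272, below 2-fold). In vehicle vs. Ctrl 0 were called by either tool, 4 were higher and 1 was lower at an unadjusted p under 0.05 (6.16% and 4.93% of all genes), and the median was 0.14. In CORT vs. vehicle edgeR called Pex11a, which is also in the PPAR alpha list, higher (1.13% of all genes), and DESeq2 called Pex11a and Acox2. At an unadjusted p under 0.05, 4 were higher and 5 lower there (11.2% and 12.1% of all genes), and the median was -0.11 with 7 positive values. Hsd17b4, the multifunctional enzyme of peroxisomal oxidation, had 0.10 ± 0.09 and 0.05 ± 0.09 in stress vs. Ctrl and CORT vs. vehicle (edgeR adjusted p = 0.685 and 0.816). Of the 14 genes of coenzyme A synthesis and breakdown, all were tested and 0 were called in any comparison by edgeR or DESeq2, with medians of -0.01 (stress vs. Ctrl), -0.05 (CORT vs. vehicle) and 0.0 (vehicle vs. Ctrl). At an unadjusted p under 0.05, 2 were higher and 1 lower in stress vs. Ctrl (8.39% and 6.78% of all genes), 1 higher and 3 lower in CORT vs. vehicle (11.2% and 12.1%) and 1 higher and 0 lower in vehicle vs. Ctrl (6.16% and 4.93%). Pank3, a pantothenate kinase, had 0.70 ± 0.12 in stress vs. Ctrl (adjusted p = 0.0221) and 0.51 ± 0.13 in CORT vs. vehicle (adjusted p = 0.0491), both below 2-fold. Slc5a6, a transporter of pantothenate and biotin that was added after its values were seen, had -0.60 ± 0.21 (adjusted p = 0.197) and -0.79 ± 0.13 (adjusted p = 0.0058, below 2-fold) in the same order.

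The remaining acyl-CoA thioesterases, a list of 10 genes of which 7 were tested, gave 0 calls in any comparison by edgeR or DESeq2. At an unadjusted p under 0.05, 0 passed in stress vs. Ctrl, 1 was higher and 2 were lower in CORT vs. vehicle (11.2% and 12.1% of all genes) and 1 was higher in vehicle vs. Ctrl (6.16%). Their median log2 fold change was 0.07 in stress vs. Ctrl, -0.21 in CORT vs. vehicle and 0.05 in vehicle vs. Ctrl. Acot11, a lipid-binding long-chain thioesterase, had 0.24 ± 0.24, 0.29 ± 0.10 and 0.39 ± 0.12 in the same order (adjusted p = 0.708, 0.105 and 0.203). Them4 had 0.26 ± 0.21, -0.22 ± 0.17 and 0.39 ± 0.18 (adjusted p = 0.627, 0.493 and 0.464). Fasn, whose thioesterase domain releases newly made palmitate, had -0.15 ± 0.14, -0.36 ± 0.08 and 0.23 ± 0.11 (adjusted p = 0.692, 0.0284 and 0.49, the second below 2-fold). Ppt1, the lysosomal palmitoyl-protein thioesterase, had 0.07 ± 0.09, 0.14 ± 0.10 and -0.01 ± 0.10 (adjusted p = 0.794, 0.456 and 0.988). Acot10, Them5 and Baat were not tested.

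Genes with the most similar course over the 12 libraries were ranked by Pearson's r of log2(CPM + 1), as a description with no p-value, since libraries of a group share their treatment. Acot5, the tested member with the largest fitted change in CORT vs. vehicle, had among its closest genes Tmem37 (r = 0.972), Mlxip (r = 0.964), B3gnt3 (r = 0.957) and Angptl4 (r = 0.951), out of 13407 genes. Among the members its r was 0.941 with Acot6, 0.848 with Acot2, 0.812 with Acot4 and 0.572 with Acot1. 3 further rankings were added after the values were seen. Among the closest genes were Kazn and N4bp2l1 (both r = 0.971), Ccl28 (r = 0.968) and Zbtb16 (r = 0.966) for Acot6, Acy1 (r = 0.952) and Eci2 (r = 0.931) for Acot1, and Tc2n (r = 0.958), Etfdh (r = 0.944) and Sult1d1 (r = 0.939) for Acot2. Acot1 and Acot6 had r = 0.467 with each other, and with Acot7, outside the cluster, they had r = -0.314 and -0.442.

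Markers of other epithelial cells and of cycling cells moved in the same comparisons as some members. In bulk RNA, fewer cells of a type and less RNA per cell cannot be told apart. The 6 enterocyte markers Alpi, Sis, Apoa1, Apoa4, Fabp2 and Anpep had a median of 24.3, 23.5 and 27.3 CPM in Ctrl, 171, 64.3 and 331 CPM in stress (1+2, 3 and 4+5+6), 15.8, 18.1 and 12.7 CPM in vehicle and 6.38, 18.5 and 17.9 CPM in CORT. Their sum was 410 to 438 CPM in Ctrl, 1166, 525 and 2117 CPM in stress, 414 to 596 CPM in vehicle and 432 to 501 CPM in CORT, with Anpep the most abundant over the 12 libraries, and none was at 0 in any library. Of the 6, 4 were called higher in stress vs. Ctrl (Alpi, Sis, Apoa1 and Apoa4), where 0.612% of all genes were, and 0 were called in CORT vs. vehicle or in vehicle vs. Ctrl by edgeR or DESeq2. At an unadjusted p under 0.05, 1 was higher and 0 lower in CORT vs. vehicle (11.2% and 12.1% of all genes), and 1 was higher and 4 were lower in vehicle vs. Ctrl (6.16% and 4.93%). Within the stress group, Acot1, Acot2, Acot3, Acot4, Acot5 and Acot12 had their highest value in 4+5+6 and their lowest in 3, as the enterocyte markers did, whereas Acot6 was highest in 1+2 and lowest in 4+5+6. With the labels read as pools, 4+5+6 held the most mice and 3 the fewest. Enterocyte markers and pool size therefore cannot be told apart in this order. In vehicle, where Acot1 was highest, the enterocyte median was below that of Ctrl in each library. The 6 goblet cell markers had a median of 83.4, 35.9 and 128 CPM in stress against 24.8 to 30.9 CPM in Ctrl. In stress vs. Ctrl 2 of them were called higher (0.612% of all genes), Zg16 with 3.15 ± 0.47 and Clca1 with 1.59 ± 0.32 (edgeR, adjusted p = 0.0108 and 0.0392). The 6 markers of cycling cells had a median of 121 to 149 CPM in Ctrl, 155 to 169 CPM in stress, 122 to 138 CPM in vehicle and 132 to 154 CPM in CORT. They had 6 of 6 positive log2 fold changes in stress vs. Ctrl (median 0.38) and 5 of 6 in CORT vs. vehicle (median 0.25). At an unadjusted p under 0.05, 5 and 3 were higher (8.39% and 11.2% of all genes), and 0 were called by edgeR or DESeq2. Top2a, a topoisomerase of dividing cells and the most abundant of them, had 0.45 ± 0.08 and 0.43 ± 0.10 (adjusted p = 0.0218 and 0.0328, below 2-fold). Of the 6 tuft cell markers 3 were tested, and Pou2f3 was called lower in CORT vs. vehicle (-1.14 ± 0.27, adjusted p = 0.0317), from 4.06 to 1.85 CPM, where 0.737% of all genes were called lower. The other tested tuft markers did not share this fall, with -0.20 ± 0.40 for Trpm5 and 0.61 ± 0.51 for Avil (edgeR adjusted p = 0.819 and 0.528). The 5 Paneth cell markers in the count table had a median of 22.5 to 25.7 CPM in Ctrl, 38.1 to 40.6 CPM in stress, 31.1 to 37.9 CPM in vehicle and 19.8 to 25.6 CPM in CORT. Their median log2 fold change was 0.71 in stress vs. Ctrl, -0.66 in CORT vs. vehicle and -0.19 in vehicle vs. Ctrl, where 1 of 5 was positive. This was Mmp7, a matrix protease that processes defensins and the most abundant of the list in vehicle, with 2.04 ± 0.16 in vehicle vs. Ctrl (edgeR, adjusted p = 0.000183) and -1.32 ± 0.12 in CORT vs. vehicle (adjusted p = 0.000483). Lyz1, Ang4, Defa17 and Defa24 had -0.24, -0.19, -0.18 and -0.29 in vehicle vs. Ctrl, none of them called. Of the 6 ISC markers 1 was called lower in stress vs. Ctrl (0.138% of all genes) and 0 in CORT vs. vehicle by edgeR or DESeq2. In CORT vs. vehicle 3 were lower at an unadjusted p under 0.05 (12.1% of all genes), and the medians were -0.07 and -0.22 in the same order. The called gene, Ascl2, a transcription factor of ISCs, fell by 1.23 ± 0.10 (log2) in stress vs. Ctrl (adjusted p = 0.000336) and had -1.0 ± 0.18 in CORT vs. vehicle (adjusted p = 0.0114). Olfm4 and Lgr5 had 0.23 ± 0.11 and -0.08 ± 0.13 in stress vs. Ctrl (adjusted p = 0.362 and 0.823) and 0.15 ± 0.10 and -0.43 ± 0.10 in CORT vs. vehicle (adjusted p = 0.42 and 0.0277). The endothelial marker Pecam1 rose by 2.12 ± 0.54 in CORT vs. vehicle (adjusted p = 0.0427), from 0.543 to 2.35 CPM, where 1.13% of all genes were called higher. It was the only gene of its list of 6 that was tested there, and Kdr of the same list was at 0 in all 12 libraries. The vehicle value lay within the floors of the vehicle libraries, 0.384 to 0.729 CPM. The part of other cells in the values of the thioesterase genes was not tested. Without stress 4+5+6 the log2 fold change in stress vs. Ctrl was 0.69 ± 0.12 for Acot1, 0.96 ± 0.15 for Acot2, 0.62 ± 0.34 for Acot4 and 1.34 ± 0.24 for Acot6.

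**Figure D5:**
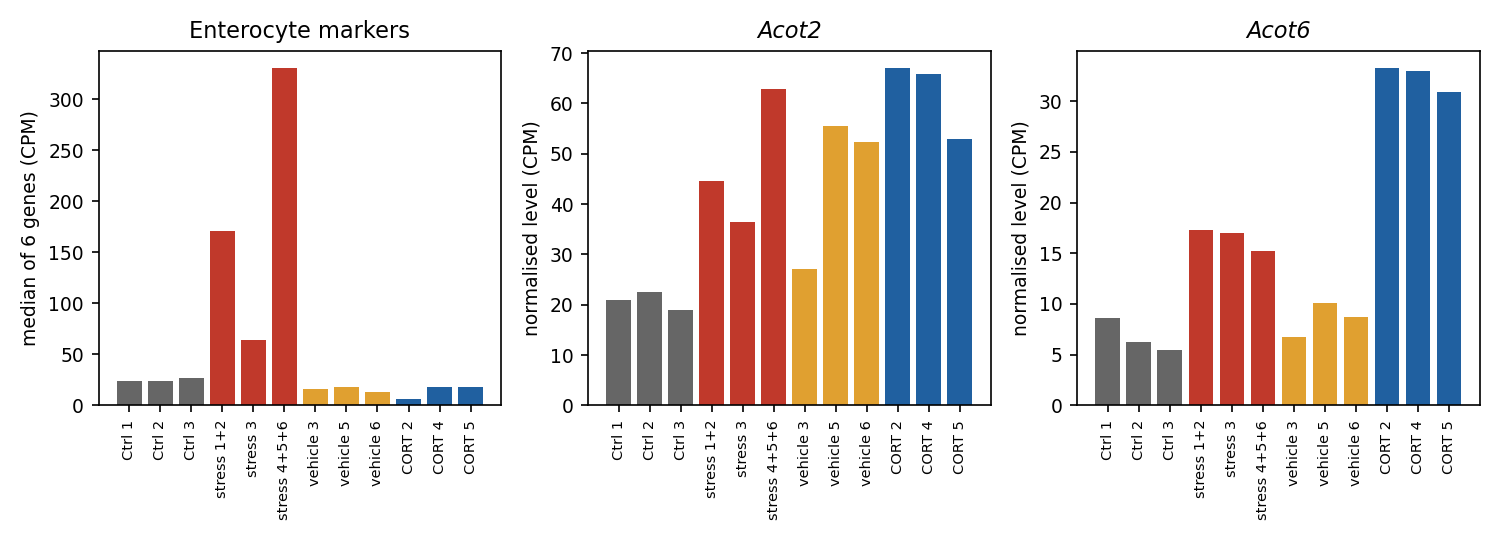
Median of 6 enterocyte markers, Acot2 and Acot6 in each library (CPM, linear axes from 0, bars are single libraries). In the 3 stress libraries Acot2 (44.6, 36.5 and 62.8 CPM) has the same order as the enterocyte median (171, 64.3 and 331 CPM), and Acot6 (17.3, 17.0 and 15.2 CPM) does not. The order of the enterocyte median is also that of pool size as read from the labels.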

How the data were processed

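RNA of sorted Lgr5-EGFP high ISCs was sequenced as paired 150-base reads. The submitters' processing notes name HISAT2 2.2.1, StringTie 2.2.1 and mm10, whereas the study's methods describe another counter. The deposited estimated counts per gene were used as they are, being whole numbers, with 1 count for 75 aligned bases, so that a read pair gives up to 4 counts. The deposited FPKM values, scaled by the authors to length and depth, served to compare levels between genes and in alternative tests. The deposited TPM and coverage values from the same tables were not used. Each library has its own table and group label.

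From the counts, CPM with TMM factors over 12 libraries were computed. Genes were tested with edgeR 4.0.16 (quasi-likelihood F-test, filterByExpr, R 4.3.3) on the 6 libraries of a comparison, with Benjamini-Hochberg adjustment over all genes tested, and called at an adjusted p below 0.05 and a change above 2-fold. Standard errors are the log2 fold change divided by the root of F. Alternatives used DESeq2 1.42.0, limma 3.58.1 on log2(FPKM + 1) or log2(FPKM + 0.1), other filters, thinned counts and each library left out in turn. The edgeR step was also run on simulated data, but no outcome is given here and nothing is drawn from it. The biological coefficient of variation was 18.5% in stress vs. Ctrl, 19.2% in CORT vs. vehicle and 16.8% in vehicle vs. Ctrl. Replicate libraries differed by more than sampling noise (chi-square per degree of freedom 2.41 to 25.4, on counts divided by the 4 counts of a read pair), so none was counted as a duplicate.

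The members and gene lists were chosen with earlier results of these data known. All 10 members are named. Of each further list, at most 6 genes per comparison are named, first those called, by size of change, then those of highest CPM. Single values of some genes that these rules select are not reported here, while counts and medians of a list cover all its tested genes. Neighbours of the cluster and the markers singled out were chosen after their values were seen. So were Pex11a in stress vs. Ctrl and Acsm3 in CORT vs. vehicle. Coding sequences were aligned with Biopython 1.88 from GENCODE transcripts of the mm10 build. Promoters came from RefSeq.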

Additional observations from a re-analysis of the deposited data

How the results depend on the processing

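In stress vs. Ctrl, 112 of the members' alternative values moved by less than the SD between replicates and 5 by more, in CORT vs. vehicle 125 and 6, the larger moves being those of Acot5 and Acot6, and for stress minus CORT all 91 moved by less than the SD of such a difference. The number of genes called in stress vs. Ctrl was 103, but 173 with DESeq2, 32 with no filter on low counts, 46 with limma on log2(FPKM + 1), 18 with the same and no filter, 51 with log2(FPKM + 0.1), and 36 (without Ctrl 3) to 278 (without stress 3) with 1 library left out, among them 44 without Ctrl 1, 43 without Ctrl 2, 52 without stress 1+2 and 63 without stress 4+5+6. In CORT vs. vehicle it was 274, but 158 and 107 with limma on log2(FPKM + 1) with and without filter, and 178 (without CORT 4) to 268 with 1 library left out. With log2(FPKM + 0.1) 118 genes were higher and 122 lower, against 166 and 108. In vehicle vs. Ctrl it was 49, but 100 with DESeq2, 20 with limma on log2(FPKM + 1), 0 with no filter there (1714 at an unadjusted p under 0.05), 21 with log2(FPKM + 0.1), and 17 (without Ctrl 1) to 103 (without vehicle 5) with 1 library left out, among them 27 without Ctrl 2 or Ctrl 3 and 28 without vehicle 6. Of the thioesterases, 3 were called in stress vs. Ctrl, but 0 with no filter on low counts or limma without filter, 1 with limma on log2(FPKM + 1) or log2(FPKM + 0.1), and 0 (without Ctrl 2 or Ctrl 3) to 5 (without stress 3) with 1 library left out, with 1 without Ctrl 1, stress 1+2 or stress 4+5+6. In CORT vs. vehicle 2 were called, but 1 with at least 10 counts in every library or limma without filter, and 1 to 2 with 1 library left out, the 2 only without vehicle 3. In vehicle vs. Ctrl 1 was called, but 2 with DESeq2 or at least 10 counts, 0 with limma without filter, and 0 (without Ctrl 1) to 2 (without vehicle 3) with 1 library left out. There, Acot1 had 1.38 (adjusted p = 0.258) with limma without filter, and Acot2 had adjusted p = 4.01e-05 with DESeq2 and 0.0286 with at least 10 counts. Near 0, signs turned in vehicle vs. Ctrl for Acot7, which ranged from -0.10 to 0.07 (without Ctrl 2), and for Acot8, which ranged from -0.14 (without vehicle 6) to 0.16, with -0.05 without Ctrl 1 and -0.02 without Ctrl 3. Values of both genes also crossed 0 elsewhere, Acot7 from -0.25 to 0.03 and Acot8 from -0.16 to 0.05 in stress vs. Ctrl, Acot8 from -0.08 to 0.18 in CORT vs. vehicle, and for stress minus CORT Acot7 from -0.08 to 0.22 and Acot8 from -0.27 to 0.04. Beyond what fewer libraries or genes tested imply, the cause was not tested. Acot3, Acot5 and Acot12 had libraries at or under the 12 counts of the floor, and thinning to equal depth took Acot5 in CORT vs. vehicle from 3.19 to 2.97 and Acot3 from 0.71 to 0.63. No paired analysis was possible because the stress libraries, labelled 1+2, 3 and 4+5+6, do not match the single numbers 1, 2 and 3 of Ctrl one to one, and vehicle and CORT share only number 5.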
